A study of Mus musculus with 18 samples.

Results

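The genes described here are 42 that copy DNA or open the way into S phase. They were taken from the deposited gene table by exact symbol, out of 24318 genes listed there. The rule uses symbols only, although earlier results of these data were known when it was written. They fall into 9 roles: origin licensing (10 genes), helicase activation (5), the sliding clamp and its loader (6), polymerases and primase (6), single-strand binding (3), lagging strand joining (2), dNTP supply (5), chromatin at the fork (2) and regulators of the G1/S transition (3). All 42 passed the filter on low counts, as did 13258 genes in all.

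RNA with poly(A) tails was sequenced from immortalized mouse embryonic fibroblasts of genotype MafF-/-::MafG-/-::MafK-/-, a deletion of the small Maf genes, whose proteins are the partners that CNC transcription factors such as Nrf1 need on DNA. The series compares mock cells of this genotype with cells of this genotype that express T-N1G, a tethered Nrf1-MafG heterodimer (written T-NG1 in the genotype label). Both lines were treated for 12 h with vehicle or with the proteasome inhibitor MG132 at 0.3 or 1.0 µM, which makes 6 groups of 3 libraries. All groups therefore carry the deletion of MafF, MafG and MafK, and no line with intact small Maf genes was compared. The labels do not name the promoter that drives T-N1G, nor do they say whether a line is 1 clone. Nor do they state that libraries within a group are separate cultures, so p-values rest on a spread between libraries that could be technical alone.

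Before S phase, the origin recognition complex with Cdc6 and Cdt1 loads the Mcm2 to Mcm7 ring onto DNA, which is called licensing. Mcm10, Cdc45 and the GINS complex then turn the ring into a moving helicase. Primase and polymerase alpha lay primers, replication factor C loads the PCNA clamp, and polymerases delta and epsilon copy the strands. Transcription of most of these genes is driven by E2F factors once cyclin E and its kinase have inactivated the pocket proteins. Cyclin E and Cdt1 are among the proteins that ubiquitin ligases mark for the proteasome, so their transcript and protein levels need not move together.

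Libraries held 18164380 to 21293709 fragments. Levels are CPM, counts relative to library size after scaling by edgeR's TMM factors, and values for single libraries are in the order of their numbers 1, 2 and 3. Changes are log2 fold changes, and ± after one is its standard error, whereas ± after a level is the SD of 3 libraries. Mafg stood at 0.276 to 1.32 CPM in mock libraries and at 142 to 4240 CPM in T-N1G libraries, and Nfe2l1, the gene of Nrf1, at 273 to 393 and at 1020 to 21500 CPM, so both genes were higher in every T-N1G library. Maff and Mafk, whose deletion all groups share, gave 2.53 to 45.7 and 1.19 to 8.17 CPM. In T-N1G cells Mafg averaged 159 CPM under vehicle, 814 CPM at 0.3 µM and 3290 CPM at 1.0 µM, so the dose and the transgene's transcript level cannot be told apart in that line. Libraries at 1.0 µM spread further apart, with a median SD of log2 CPM of the 42 genes of 0.1577 in mock cells and 0.2372 in T-N1G cells, against 0.0508 and 0.0496 under vehicle. At 1.0 µM the library numbered 2 had the highest and that numbered 3 the lowest summed level of the 42 genes in both lines (7003.5 and 5860.1 CPM in mock, 6128.7 and 4629.8 CPM in T-N1G cells). Of 9 fibroblast genes all were above the filter, with summed levels of 8372.1 to 13163 CPM over all libraries. Of 18 markers of leukocytes, endothelium, epithelium, muscle and fat, 8 were under the filter. The summed endothelial markers went from 5.978 to 6.724 CPM under vehicle to 63.31 to 87.03 CPM at 1.0 µM in mock cells and from 4.971 to 6.719 to 25.09 to 38.63 CPM in T-N1G cells, nearly all of it Kdr. Epithelial markers summed to 0.7301 to 1.018 and 7.891 to 13.67 CPM in the same mock groups. In the T-N1G groups they summed to 1.748 to 2.808 and 3.684 to 5.074 CPM. Most of the mock rise was Krt8, at 3 to 7 fragments under vehicle and 116 to 232 at 1.0 µM. Krt18 went from 0 to 1 fragments to 6 to 23 there, and Epcam never exceeded 0.379 CPM. Cd3e, Adgre1, Myog, Myod1, Adipoq and Plin1 stayed at 0 to 0.123 CPM. Other markers of these types were present: Cd14 had 76 to 224 fragments and Des 4 to 33 over all libraries. Ptprc went from 0 to 1 fragments under vehicle to 6 to 14 at 1.0 µM. Summed leukocyte markers went from 5.158 to 5.601 CPM under vehicle to 6.031 to 8.874 CPM at 1.0 µM in mock cells. In T-N1G cells they went from 3.543 to 4.634 CPM to 7.64 to 12.53 CPM. Of the 10 markers tested, 5 rose and none fell in mock cells at 1.0 µM, and 7 rose and 1 fell in T-N1G cells. Among all genes tested, 32.4% rose and 37.4% fell in mock cells, and 37.5% rose and 38.9% fell in T-N1G cells. Ptprc, Pecam1, Cdh5 and Krt18 had 0 to 6 fragments in vehicle libraries and passed the filter only through MG132 libraries. Krt8 had 3 to 20 fragments in vehicle libraries and likewise passed only through MG132 libraries. A rise of these genes was therefore favoured by the filter. The part of these markers in the results below was not tested.

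In mock cells MG132 raised most licensing and helicase genes and lowered thymidine kinase, dUTPase and some subunits of the clamp loader and polymerases. At 1.0 µM, 21 of the 42 genes rose and 12 fell, where 32.4% of all genes tested rose and 37.4% fell (69.7% in either direction). Their median log2 fold change was 0.181, against -0.042 over all genes tested. At 0.3 µM, 16 rose and 9 fell, against 25.0% and 28.1% of all genes (53.1% in either direction). A gene is said to rise or fall where the adjusted p of edgeR's quasi-likelihood test, taken over all genes, was under 0.05. In mock cells at 1.0 µM, 33.3% of all genes had every treated library above vehicle and 39.2% had every one below. In T-N1G cells at 1.0 µM these shares were 36.5% and 38.9%. At 0.3 µM they were 35.2% and 37.7% in mock cells and 34.5% and 36.3% in T-N1G cells. Lack of overlap with vehicle, given for single genes below, was therefore common and alone does not set a gene apart. In bulk samples, fewer cells of a type, such as cells in S phase, and less RNA per cell cannot be told apart.

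In T-N1G cells more of these genes fell than rose at 1.0 µM. There 13 of the 42 genes rose and 20 fell, against 37.5% and 38.9% of all genes (76.4% in either direction), with a median log2 fold change of -0.15 against -0.006 over all genes. That median was -0.026 without T-N1G library 3 at 1.0 µM and -0.282 without library 2. At 0.3 µM 13 rose and 11 fell, against 29.1% and 30.3% of all genes (59.4% in either direction). No gene passed the test in opposite directions in the lines at 1.0 µM: 13 rose in both, 12 fell in both, 8 rose in mock cells only by the test, and 8 fell in T-N1G cells only by the test. By sign alone some changes were opposite, as for Gins2, Pcna, Mcm7 and Prim1, whose changes are given below. Fen1, the flap endonuclease, passed the test in none of the 4 comparisons with vehicle. With library size in place of TMM factors, which lowers the median of all genes from -0.042 to -0.134 in mock and from -0.006 to -0.148 in T-N1G cells, 18 rose and 14 fell in mock and 11 rose and 22 fell in T-N1G cells.

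**Figure D1:**
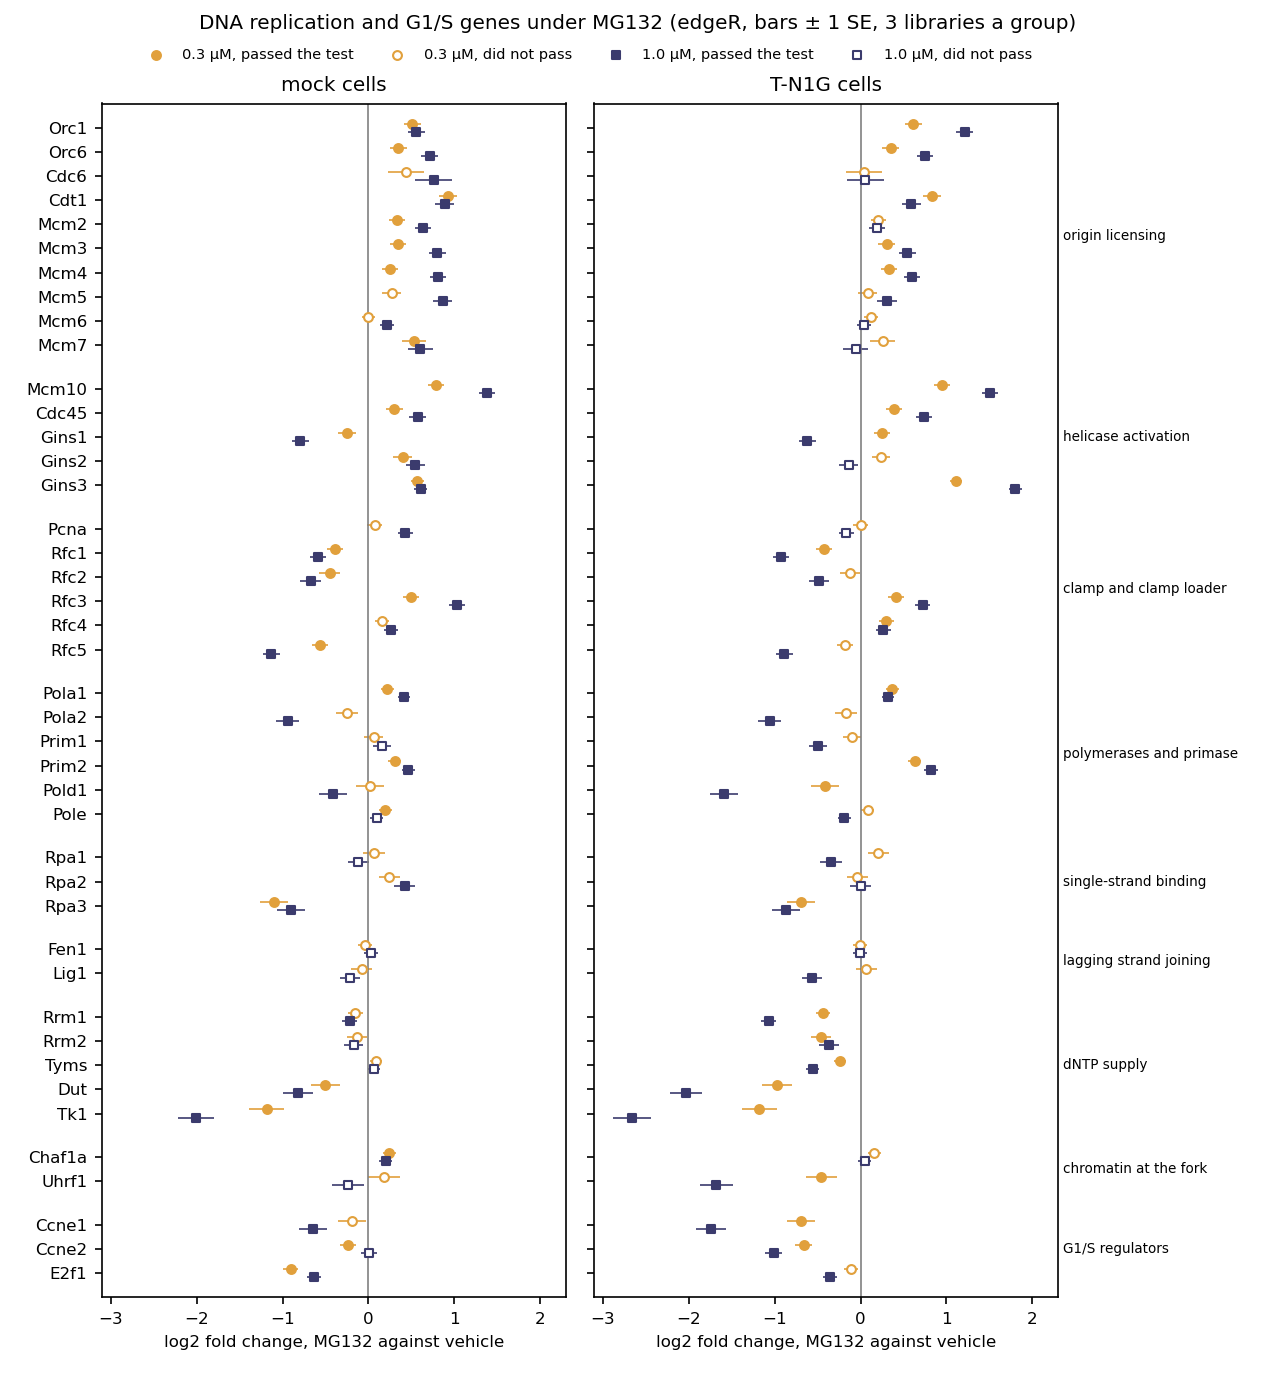
Log2 fold change of each of the 42 genes against vehicle (x axis) in mock cells (left) and T-N1G cells (right), in rows grouped by role. Circles are 0.3 µM and squares 1.0 µM, filled where the gene passed the test, and bars are ± 1 SE. All 10 licensing genes lie right of 0 in mock cells at 1.0 µM, and Tk1 has the lowest value in both panels, at -2.00 and -2.66.

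Promoters are shown to set their E2F-type sequences, which E2F factors bind, beside the calls. RefSeq promoters on build GRCm38.p6, from 250 bases before to 50 after the start, were matched for 35 of the 42 genes. For 33 of the 35, a RefSeq start lay within 100 bases of a transcript start in the GENCODE annotation. Those of E2f1 and Pcna lay 294 and 134 bases away, so their windows may miss the start in use. An E2F-type match is one of TTTCCCGC, TTTCGCGC, TTTGCCGC or TTTGGCGC on either strand, and such matches may overlap. It was present in 13 of 35 (37.1%), against 2.6% of 27025 genes. Of genes that rose in mock cells at 1.0 µM 10 of 18 had a match, of those that fell 1 of 10, and of the rest 2 of 7. In T-N1G cells at 1.0 µM the counts were 7 of 11, 3 of 16 and 3 of 8. The sequence CCAAT, on either strand, was in 62.9% of the 35 promoters and 41.1% of all. TGACNNNGC, the core bound by CNC and small Maf dimers, was in 20.0% and 14.0%. The cell cycle element TTTGAA was in 11.4% and 20.2%, and in 73.9% of 23 promoters of a list of mitotic genes, of which 4.3% had an E2F-type match. These counts describe letters in a window and do not show binding.

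The 250 bases before the start are printed for 6 genes, with E2F-type and CCAAT matches in capitals. Mcm5 at chr8:75109259-75109508 (+ strand), Orc1 at chr4:108579204-108579453 (+ strand) and Gins3 at chr8:95633309-95633558 (+ strand) belong to genes that rose in both lines at 1.0 µM, although the rise of Mcm5 in T-N1G cells did not pass when scaled by library size only. Uhrf1 has a start at chr17:56304063-56304312 (+ strand), which holds an E2F-type match, and another start with no E2F-type match but 1 CCAAT match, and fell in T-N1G cells. Tk1 at chr11:117826015-117826264 (- strand) and Ccne1 at chr7:38107491-38107740 (- strand) fell in both lines and hold no match of either kind in these 250 bases.
Mcm5: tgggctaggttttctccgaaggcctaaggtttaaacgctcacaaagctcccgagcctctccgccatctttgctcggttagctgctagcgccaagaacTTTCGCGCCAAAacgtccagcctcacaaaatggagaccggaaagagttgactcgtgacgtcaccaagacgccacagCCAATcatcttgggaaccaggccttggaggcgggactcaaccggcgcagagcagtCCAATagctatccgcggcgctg
Orc1: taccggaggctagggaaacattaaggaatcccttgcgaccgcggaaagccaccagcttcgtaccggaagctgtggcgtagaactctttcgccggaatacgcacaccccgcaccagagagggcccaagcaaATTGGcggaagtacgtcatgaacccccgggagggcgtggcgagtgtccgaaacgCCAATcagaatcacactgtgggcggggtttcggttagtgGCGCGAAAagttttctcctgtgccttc
Gins3: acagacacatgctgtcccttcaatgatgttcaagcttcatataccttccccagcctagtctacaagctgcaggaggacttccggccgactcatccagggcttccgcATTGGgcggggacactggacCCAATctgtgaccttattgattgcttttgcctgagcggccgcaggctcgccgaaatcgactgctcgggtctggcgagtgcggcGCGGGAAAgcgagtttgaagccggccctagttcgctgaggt
Uhrf1: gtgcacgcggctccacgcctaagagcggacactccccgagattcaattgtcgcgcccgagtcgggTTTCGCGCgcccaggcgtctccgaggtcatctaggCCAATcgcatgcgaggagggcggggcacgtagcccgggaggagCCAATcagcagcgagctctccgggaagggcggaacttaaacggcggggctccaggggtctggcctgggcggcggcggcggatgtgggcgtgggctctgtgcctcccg
Tk1: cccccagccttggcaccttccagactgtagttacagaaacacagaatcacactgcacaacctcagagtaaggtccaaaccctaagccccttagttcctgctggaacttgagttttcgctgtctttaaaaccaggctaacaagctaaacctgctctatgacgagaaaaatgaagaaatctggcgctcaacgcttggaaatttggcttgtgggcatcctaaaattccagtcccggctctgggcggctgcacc
Ccne1: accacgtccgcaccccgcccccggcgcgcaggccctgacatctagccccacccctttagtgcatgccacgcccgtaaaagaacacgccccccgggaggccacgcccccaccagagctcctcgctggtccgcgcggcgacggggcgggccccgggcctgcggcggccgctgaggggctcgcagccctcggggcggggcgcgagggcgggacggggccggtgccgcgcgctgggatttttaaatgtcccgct

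Of the 10 licensing genes, all rose in mock cells at 1.0 µM and 7 at 0.3 µM, while in T-N1G cells 6 and 5 rose and none fell. Among all genes tested, 32.4% rose in mock cells at 1.0 µM and 25.0% at 0.3 µM, and 37.5% and 29.1% in T-N1G cells. Their summed level in mock cells was 1838 ± 35.5 CPM under vehicle, 2301 ± 50.5 CPM at 0.3 µM and 2962 ± 328 CPM at 1.0 µM (mean ± SD, n = 3). In T-N1G cells it was 1993 ± 40.2, 2342 ± 113 and 2506 ± 382 CPM. Among the ring subunits in mock cells at 1.0 µM, Mcm5 changed most (log2 fold change 0.86 ± 0.11, adjusted p = 2.37e-06), from 329 ± 12.7 to 598 ± 99.5 CPM. Mcm3 (0.80), Mcm4 (0.80), Mcm2 (0.63) and Mcm7 (0.61) followed. In T-N1G cells the values were 0.31 for Mcm5, 0.54 for Mcm3 and 0.60 for Mcm4, which rose, and 0.19 for Mcm2 and -0.06 for Mcm7, which did not pass. The call of Mcm5 in T-N1G cells held in 13 of 17 alternatives (adjusted p up to 0.145).

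Mcm6, a further ring subunit (chr1:130228167-130256233 on mm9, as the deposited table gives it), had the smallest change of the licensing genes at 1.0 µM over both lines. Mock libraries had 248, 252 and 244 CPM under vehicle, 254, 235 and 255 at 0.3 µM, and 298, 303 and 266 at 1.0 µM. T-N1G libraries had 313, 283 and 282 CPM under vehicle, 317, 329 and 308 at 0.3 µM, and 308, 332 and 263 at 1.0 µM. Treated libraries overlap vehicle except in mock cells at 1.0 µM, where all lie above it, and the change there (log2 0.22 ± 0.08, adjusted p = 0.0219) did not pass when scaled by library size only (0.127, adjusted p = 0.142). Mcm7 (chr5:138605816-138613090) in mock libraries stood at 242, 254 and 238 CPM under vehicle, 359, 346 and 354 at 0.3 µM, and 382, 425 and 308 at 1.0 µM. In T-N1G libraries it stood at 275, 273 and 278 CPM under vehicle, 291, 356 and 340.2 at 0.3 µM, and 258, 341 and 197 at 1.0 µM. All mock libraries with MG132 were above all mock libraries with vehicle, whereas T-N1G libraries at 1.0 µM lay on both sides of vehicle.

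Orc1, the largest subunit of the origin recognition complex (chr4:108252058-108287436), rose in both lines and further in T-N1G cells. In mock libraries Orc1 was at 26.2, 23.5 and 25.7 CPM under vehicle, 37.02, 37.4 and 33.1 at 0.3 µM, and 37.9, 39.6 and 33.7 at 1.0 µM. T-N1G libraries measured 21.3, 21.99 and 21.6 CPM under vehicle, 30.5, 35.5 and 33.3 at 0.3 µM, and 57.5, 47.8 and 45.1 at 1.0 µM. Treated and vehicle libraries did not overlap in either line, which was common among all genes. Log2 fold changes at 1.0 µM were 0.56 ± 0.10 in mock and 1.21 ± 0.10 in T-N1G cells (adjusted p = 5.17e-05 and 2.33e-09). The difference between the lines was 0.65 ± 0.14, adjusted p = 0.000764. Orc6, another subunit of that complex, rose in both (0.71 ± 0.10 and 0.75 ± 0.10, difference 0.04 ± 0.14). Cdt1, which loads the ring, rose at both doses in both lines (0.93 and 0.89 in mock, 0.83 and 0.59 in T-N1G cells). Cdc6, its partner, passed only in mock cells at 1.0 µM (0.76, against 0.06 in T-N1G cells), and the difference between lines did not pass (adjusted p = 0.0691).

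Of the 5 genes that activate the helicase, 4 rose and 1 fell in mock cells at 1.0 µM, and 3 rose and 1 fell in T-N1G cells. The largest rise of the 42 genes was among them in each line. Among all genes tested, 32.4% rose and 37.4% fell in mock cells, and 37.5% rose and 38.9% fell in T-N1G cells. Mcm10, which joins Cdc45 to the ring (chr2:4911769-4933837), was at 92.4, 92.6 and 90.95 CPM under vehicle, 169.7, 155 and 151 at 0.3 µM, and 242, 257 and 219.7 at 1.0 µM in mock cells. T-N1G libraries gave 83.03, 81.6 and 77.6 CPM under vehicle, 151, 156 and 159.9 at 0.3 µM, and 245, 252 and 189.6 at 1.0 µM. The 3 groups of each line did not overlap, and log2 fold changes at 1.0 µM were 1.38 ± 0.09 in mock and 1.50 ± 0.09 in T-N1G cells (adjusted p = 5.23e-10 and 6.02e-11). Cdc45, a part of the active helicase, rose by a log2 of 0.57 in mock and 0.74 in T-N1G cells.

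GINS subunits act as a complex, and the 3 among these genes had different changes. Gins3 (chr8:98157458-98168959) in mock cells had 24.7, 25.6 and 24.3 CPM under vehicle, 37.2, 37.2 and 36.5 at 0.3 µM, and 36.6, 40.5 and 36.6 at 1.0 µM. In T-N1G cells it had 31.0, 27.9 and 30.2 CPM under vehicle, 63.6, 63.9 and 64.9 at 0.3 µM, and 115, 101 and 94.6 at 1.0 µM. Mock libraries at 1.0 µM overlap those at 0.3 µM, while T-N1G libraries at 1.0 µM lay above all others, with log2 fold changes of 0.61 ± 0.08 and 1.80 ± 0.08 and a difference of 1.19 ± 0.11, adjusted p = 8.24e-08. Gins1 (chr2:150735329-150757016) is a further subunit. Mock libraries held 15.9, 14.5 and 15.6 CPM under vehicle, 12.5, 13.1 and 13.1 at 0.3 µM, and 8.34, 8.98 and 9.21 at 1.0 µM. T-N1G libraries held 16.6, 16.2 and 18.8 CPM under vehicle, 19.6, 21.3 and 20.5 at 0.3 µM, and 12.7, 11.3 and 9.70 at 1.0 µM. It fell at 1.0 µM in both lines (-0.79 ± 0.10 and -0.62 ± 0.10). On the authors' FPKM (log2 of the value plus 1) these falls were smaller, -0.327 and -0.385 (limma, adjusted p = 0.00938 and 0.00269). At 0.3 µM it fell in mock (-0.25 ± 0.10, adjusted p = 0.0403) and rose in T-N1G cells (0.25 ± 0.10, adjusted p = 0.034), without overlap with vehicle. The first call was lost without any 1 of the 6 libraries compared (adjusted p up to 0.166, without mock vehicle library 1) and on that FPKM scale (-0.117, adjusted p = 0.363), and the second without T-N1G vehicle library 1 or 2 or 0.3 µM library 2 or 3 (adjusted p up to 0.11). Gins2 (chr8:123012765-123112975) was at 26.1, 26.8 and 28.6 CPM under vehicle, 36.5, 34.6 and 36.5 at 0.3 µM, and 45.5, 38.8 and 34.5 at 1.0 µM in mock cells. T-N1G cells had 32.9, 31.9 and 29.2 CPM under vehicle, 36.01, 39.2 and 35.8 at 0.3 µM, and 28.3, 33.4 and 23.9 at 1.0 µM. Treated mock libraries lay above vehicle, and T-N1G libraries at 1.0 µM on both sides of it. At 1.0 µM Gins2 rose in mock cells (0.54 ± 0.11, adjusted p = 0.000258) and in T-N1G cells was at -0.14 ± 0.11, adjusted p = 0.272, a difference of -0.68 ± 0.16, adjusted p = 0.00172.

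**Figure D2:**
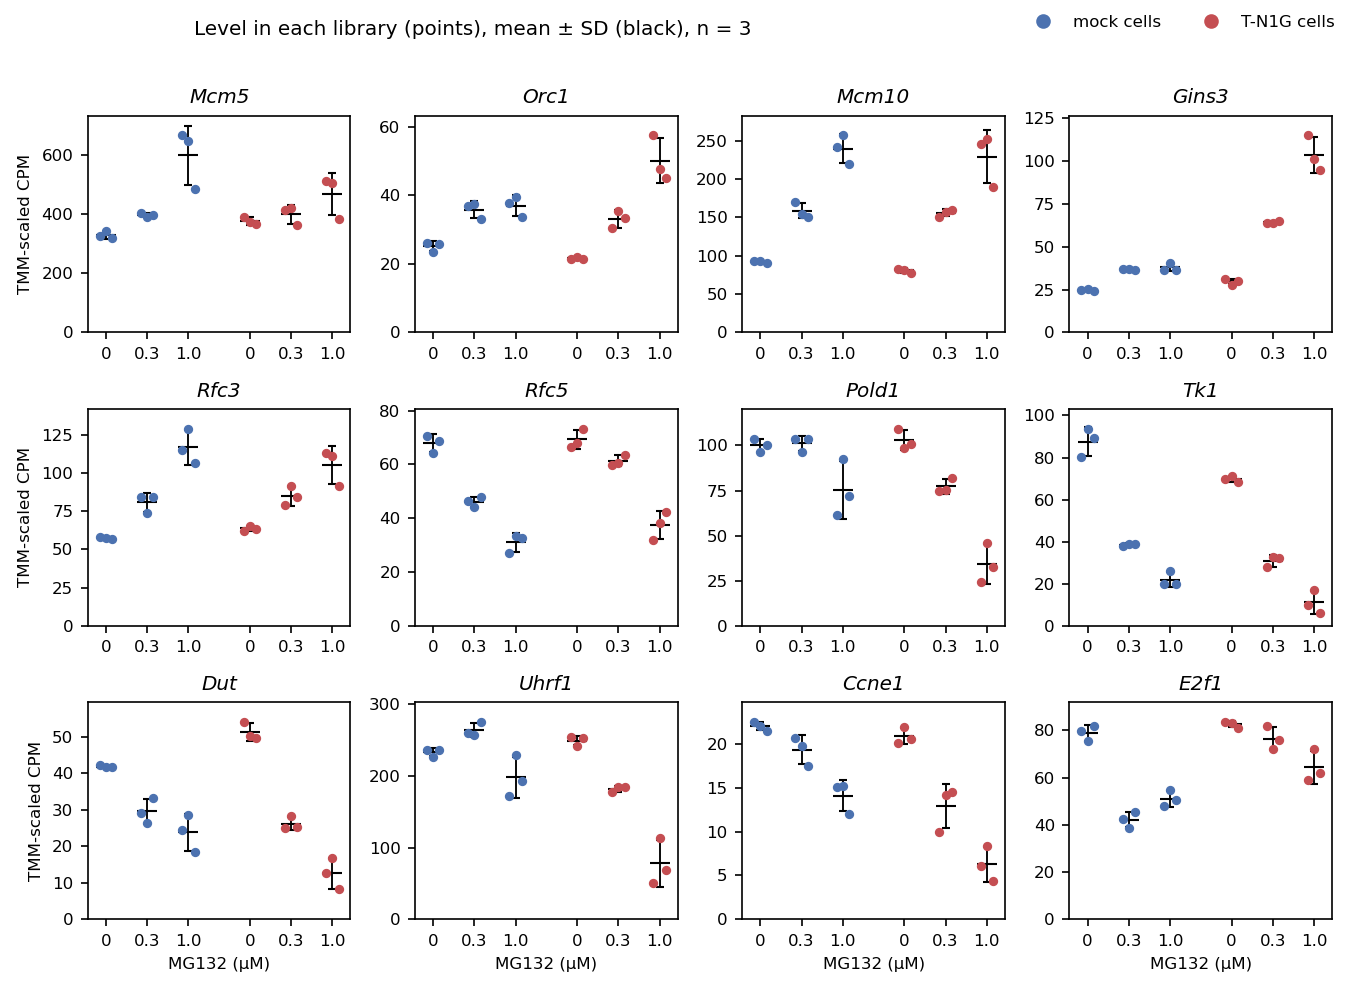
Level of 12 genes in each library (points, TMM-scaled CPM, axes from 0) with mean ± SD of the 3 libraries in black, for mock cells (blue) and T-N1G cells (red) at 0, 0.3 and 1.0 µM MG132. Mcm10 climbs with dose in both lines, Gins3 climbs further in T-N1G cells, and Tk1, Dut, Pold1, Uhrf1 and Ccne1 are lowest in T-N1G cells at 1.0 µM.

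Subunits of the clamp loader, replication factor C, were split between rises and falls in both lines. Rfc3 (chr5:152445398-152453783) in mock cells was at 57.99, 57.1 and 56.5 CPM under vehicle, 84.4, 73.5 and 83.98 at 0.3 µM, and 115, 129 and 106 at 1.0 µM. T-N1G libraries showed 62.1, 65.5 and 63.6 CPM under vehicle, 78.7, 91.5 and 84.2 at 0.3 µM, and 113, 111 and 91.1 at 1.0 µM. It rose at 1.0 µM by a log2 of 1.03 ± 0.09 in mock and 0.72 ± 0.09 in T-N1G cells, with no overlap between treated and vehicle libraries. Rfc5 (chr5:117829153-117839032) did the opposite. Mock libraries contained 70.7, 64.3 and 68.8 CPM under vehicle, 46.4, 44.2 and 47.8 at 0.3 µM, and 27.0, 33.3 and 32.7 at 1.0 µM. T-N1G libraries contained 66.5, 68.1 and 73.2 CPM under vehicle, 59.8, 60.4 and 63.6 at 0.3 µM, and 31.9, 38.3 and 42.2 at 1.0 µM. It fell at 1.0 µM by a log2 of -1.13 ± 0.10 in mock cells and -0.89 ± 0.09 in T-N1G cells, and at 0.3 µM in mock cells (-0.56 ± 0.09). Its value in T-N1G cells at 0.3 µM, -0.18 ± 0.09, did not pass, although all treated libraries lay below vehicle in both lines.

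Rfc1, the large subunit, fell in all 4 comparisons (-0.39 and -0.59 in mock, -0.43 and -0.92 in T-N1G cells). Rfc2 fell in 3 (-0.45, -0.67 and, in T-N1G cells at 1.0 µM, -0.48). Rfc4 rose at 1.0 µM in both lines (0.26 and 0.27), but with library size only it was at 0.171 and 0.123 (adjusted p = 0.0929 and 0.211). Per transcript length, the authors' FPKM (fragments scaled by transcript length and depth) under vehicle in mock cells ran from 22.5 ± 2.05 for Rfc4 to 53.8 ± 0.492 for Rfc3, and at 1.0 µM from 20.3 for Rfc5 to 115 for Rfc3. Ring subunits ran on that scale from 69.3 (Mcm4) to 106 FPKM (Mcm7) under vehicle and from 107 (Mcm6) to 185 FPKM (Mcm5) at 1.0 µM. Pcna, the clamp itself and the most abundant of the 42 per length under vehicle (191 FPKM in mock cells), rose in mock cells at 1.0 µM (0.43 ± 0.09, adjusted p = 0.000313). In T-N1G cells it was at -0.17 ± 0.09, adjusted p = 0.095, and the difference of the lines was -0.59 ± 0.12, adjusted p = 0.000831.

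Polymerase alpha and primase form a single primer-making complex, whose 4 genes here did not move together. Pola1, the catalytic subunit, rose at 1.0 µM (0.41 in mock cells, 0.32 in the T-N1G line), and Pola2, the accessory subunit, fell (-0.94 ± 0.13 and -1.05 ± 0.13). Prim2, the large primase subunit (chr1:33510652-33726639), was at 69.6, 69.3 and 73.6 CPM under vehicle, 88.3, 84.4 and 89.6 at 0.3 µM, and 87.3, 96.7 and 109 at 1.0 µM in mock cells. T-N1G libraries yielded 71.4, 75.4 and 68.03 CPM under vehicle, 110.1, 119 and 103 at 0.3 µM, and 125, 129 and 125 at 1.0 µM. It rose at both doses in both lines, without overlap with vehicle, by 0.46 ± 0.08 and 0.82 ± 0.08 at 1.0 µM. The difference between the lines (0.36 ± 0.11, adjusted p = 0.0122) did not pass without mock vehicle library 3, mock 1.0 µM library 1 or T-N1G vehicle library 1 or 3 (adjusted p up to 0.0771). Prim1, the catalytic primase subunit, was at 0.16 in mock cells and fell in T-N1G cells (-0.49 ± 0.11).

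Pold1 and Pole encode the catalytic subunits of polymerases delta and epsilon. Pold1 (chr7:51788113-51804185) in mock libraries was at 104, 96.2 and 100.4 CPM under vehicle, 104, 96.2 and 104 at 0.3 µM, and 61.3, 92.6 and 71.95 at 1.0 µM. In T-N1G libraries Pold1 was at 109, 98.7 and 101 CPM under vehicle, 74.5, 75.6 and 82.0 at 0.3 µM, and 24.1, 45.8 and 32.5 at 1.0 µM. Each T-N1G library at 1.0 µM lay below every other library. The log2 fold change there was -1.59 ± 0.17, adjusted p = 1.75e-07, against -0.41 ± 0.16, adjusted p = 0.0315 in mock cells, and the difference of the lines was -1.18 ± 0.23, adjusted p = 0.00055. The fall in mock cells was lost without any 1 of the 6 libraries compared except library 2 at 1.0 µM (adjusted p up to 0.265), and the fall at 0.3 µM in T-N1G cells (-0.41, adjusted p = 0.0362) without any 1 of its 6 (adjusted p up to 0.135). Pole rose in mock cells at 0.3 µM (0.20) and fell in T-N1G cells at 1.0 µM (-0.19), where mock cells were at 0.10. These calls held in 11 and 6 of 17 alternatives (adjusted p up to 0.193 and 0.222).

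Replication protein A coats single-stranded DNA as a trimer. Its smallest subunit, Rpa3 (chr6:8205935-8209141), fell in all 4 comparisons. Mock libraries recorded 11.9, 12.7 and 12.6 CPM under vehicle, 6.06, 5.87 and 5.37 at 0.3 µM, and 7.38, 7.18 and 5.37 at 1.0 µM. T-N1G libraries recorded 12.2, 13.8 and 12.8 CPM under vehicle, 7.23, 9.01 and 7.74 at 0.3 µM, and 9.09, 7.10 and 5.09 at 1.0 µM. Every treated library lay below every vehicle library of its line, with log2 fold changes of -1.10 ± 0.16 and -0.90 ± 0.16 in mock cells and -0.69 ± 0.16 and -0.87 ± 0.16 in T-N1G cells. Rpa2, the middle subunit (chr4:132324274-132334661), was at 44.4, 46.1 and 49.4 CPM under vehicle, 55.6, 55.9 and 53.8 at 0.3 µM, and 64.7, 69.5 and 53.2 at 1.0 µM in mock cells. T-N1G cells were at 44.1, 43.1 and 42.7 CPM under vehicle, 38.8, 46.5 and 41.3 at 0.3 µM, and 47.7, 49.6 and 32.8 at 1.0 µM. Treated mock libraries lay above vehicle, and T-N1G libraries overlap it. Rpa2 rose in mock cells at 1.0 µM (0.42 ± 0.12, adjusted p = 0.00516), and the difference between the lines there did not pass (-0.42 ± 0.17, adjusted p = 0.0572, and 0.0338 with the replicate block). Rpa1, the large subunit, was at -0.12 in mock cells and fell in T-N1G cells (-0.34), a call held in 10 of 17 alternatives (adjusted p up to 0.134).

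Of the enzymes that finish Okazaki fragments, Fen1 (chr19:10273621-10278433) was the only one of the 42 genes with no call against vehicle. Mock libraries read 102, 114 and 103 CPM under vehicle, 104, 103 and 102 at 0.3 µM, and 108, 113 and 104 at 1.0 µM. T-N1G libraries read 106, 114 and 112 CPM under vehicle, 103, 115 and 113 at 0.3 µM, and 118, 119 and 94.1 at 1.0 µM. Treated libraries overlap vehicle in both lines, and its 4 log2 fold changes against vehicle were -0.04, 0.03, 0.00 and 0.00, each with an SE of 0.08. Lig1, the ligase that seals nicks (chr7:13844315-13896776), was at 162, 171 and 163 CPM under vehicle, 156, 156 and 156 at 0.3 µM, and 129, 167 and 132 at 1.0 µM in mock cells. T-N1G cells measured 181, 173 and 174 CPM under vehicle, 177, 189 and 188 at 0.3 µM, and 114, 149 and 94.1 at 1.0 µM. It fell in T-N1G cells at 1.0 µM (-0.57 ± 0.12, adjusted p = 0.000314), where each library was below vehicle, and was at -0.21 ± 0.12, adjusted p = 0.118 in mock cells.

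None of the 5 genes of dNTP supply rose in any comparison with vehicle. In mock cells 2 fell at 0.3 µM and 3 at 1.0 µM, and in T-N1G cells all 5 fell at both doses. Among all genes tested, 28.1% and 37.4% fell in mock cells and 30.3% and 38.9% in T-N1G cells, in order of dose. Their summed level was 925 ± 22.4, 800.2 ± 20.9 and 752 ± 64.3 CPM in mock cells in order of dose, and 924 ± 30.5, 657 ± 28.5 and 494 ± 66.2 CPM in T-N1G cells (mean ± SD, n = 3).

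Thymidine kinase, Tk1 (chr11:117676832-117701222), salvages thymidine and had the largest fall of the 42 genes. Mock libraries had Tk1 at 80.1, 93.7 and 89.1 CPM under vehicle, 37.8, 38.9 and 39.1 at 0.3 µM, and 19.7, 25.9 and 20.0 at 1.0 µM. T-N1G libraries had it at 69.7, 71.3 and 68.5 CPM under vehicle, 27.7, 32.7 and 32.1 at 0.3 µM, and 9.76, 17.2 and 6.29 at 1.0 µM. Groups of different doses did not overlap in either line. The log2 fold changes were -1.18 ± 0.20 and -2.00 ± 0.21 in mock cells and -1.18 ± 0.20 and -2.66 ± 0.22 in T-N1G cells (adjusted p = 3.68e-07 and 1.54e-08 at 1.0 µM), and the difference of the lines at 1.0 µM did not pass (-0.65 ± 0.30, adjusted p = 0.0883, and 0.0433 with the replicate block). Dut, the dUTPase that keeps uracil out of DNA (chr2:125072983-125084785), was at 42.1, 41.7 and 41.5 CPM under vehicle, 29.03, 26.4 and 33.1 at 0.3 µM, and 24.3, 28.4 and 18.5 at 1.0 µM in mock cells. T-N1G libraries were at 53.98, 50.1 and 49.6 CPM under vehicle, 25.02, 28.2 and 25.1 at 0.3 µM, and 12.7, 16.8 and 8.13 at 1.0 µM. It fell by log2 values of -0.82 ± 0.18 and -2.03 ± 0.18 at 1.0 µM, further in T-N1G cells (-1.22 ± 0.25, adjusted p = 0.000804). All treated libraries were below vehicle. The fall of Dut in mock cells at 0.3 µM (-0.50, adjusted p = 0.0211) was lost without any 1 of the 6 libraries compared except 0.3 µM library 3 (adjusted p up to 0.0871).

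Rrm1, the large subunit of ribonucleotide reductase (chr7:109590208-109618285), fell further in T-N1G cells. Mock cells had 471, 476 and 456 CPM under vehicle, 425, 427 and 409 at 0.3 µM, and 395, 444 and 366 at 1.0 µM. T-N1G cells had 481, 503 and 465 CPM under vehicle, 338, 371 and 361 at 0.3 µM, and 216, 264 and 211 at 1.0 µM. T-N1G libraries stepped down at each dose without overlap, to a log2 fold change of -1.07 ± 0.09, adjusted p = 2.58e-09 at 1.0 µM. The mock value of -0.22 ± 0.09, adjusted p = 0.0285 was lost without any 1 of the 6 libraries compared except library 2 at 1.0 µM (adjusted p up to 0.225), and the lines differed by -0.85 ± 0.12, adjusted p = 1.79e-05. Rrm2, its small subunit, was at -0.17 in mock cells and fell in T-N1G cells (-0.46 at 0.3 µM and -0.37 at 1.0 µM). Thymidylate synthase, Tyms (chr5:30384739-30400165), was at 89.4, 84.2 and 83.4 CPM under vehicle, 92.8, 86.1 and 93.9 at 0.3 µM, and 95.4, 90.5 and 83.4 at 1.0 µM in mock cells. In T-N1G cells Tyms was at 82.1, 87.3 and 84.4 CPM under vehicle, 67.9, 75.3 and 72.5 at 0.3 µM, and 58.95, 60.4 and 53.1 at 1.0 µM. Mock libraries overlap across doses, while T-N1G libraries fell at both doses (log2 -0.24 ± 0.07 and -0.56 ± 0.07), and the lines differed at 1.0 µM by -0.63 ± 0.10, adjusted p = 6.12e-05. The call at 0.3 µM was lost without T-N1G vehicle library 2 (adjusted p = 0.0549). The table also lists a Tyms pseudogene, so how reads were split between the copies is uncertain.

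Chaf1a and Uhrf1 act on chromatin behind the fork, the first as the large subunit of a histone chaperone and the second in keeping DNA methylation. Chaf1a (chr17:56179838-56207449) in mock cells was at 159.7, 158 and 158 CPM under vehicle, 189, 186 and 187 at 0.3 µM, and 176, 196 and 175 at 1.0 µM. T-N1G libraries stood at 163, 158 and 159 CPM under vehicle, 175, 189.9 and 172 at 0.3 µM, and 162, 188 and 147 at 1.0 µM. It rose slightly in mock cells (0.24 ± 0.08 and 0.20 ± 0.08), a call lost at both doses with library size only (adjusted p = 0.0556 and 0.216). Uhrf1 (chr17:56442759-56462909) stood at 237, 227 and 236 CPM under vehicle, 260.2, 258 and 275 at 0.3 µM, and 173, 229 and 192 at 1.0 µM in mock cells. T-N1G cells contained 254, 242 and 253 CPM under vehicle, 178, 184 and 184 at 0.3 µM, and 50.8, 114 and 69.2 at 1.0 µM. Every T-N1G library at 1.0 µM was below every other library, at a log2 fold change of -1.68 ± 0.19, adjusted p = 5.93e-07 against -0.24 ± 0.18, adjusted p = 0.259 in mock cells. The lines differed by -1.44 ± 0.26, adjusted p = 0.000332. The fall at 0.3 µM in T-N1G cells (-0.46 ± 0.18, adjusted p = 0.0433) was lost when any 1 of the 6 libraries was left out (adjusted p up to 0.116).

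**Figure D3:**
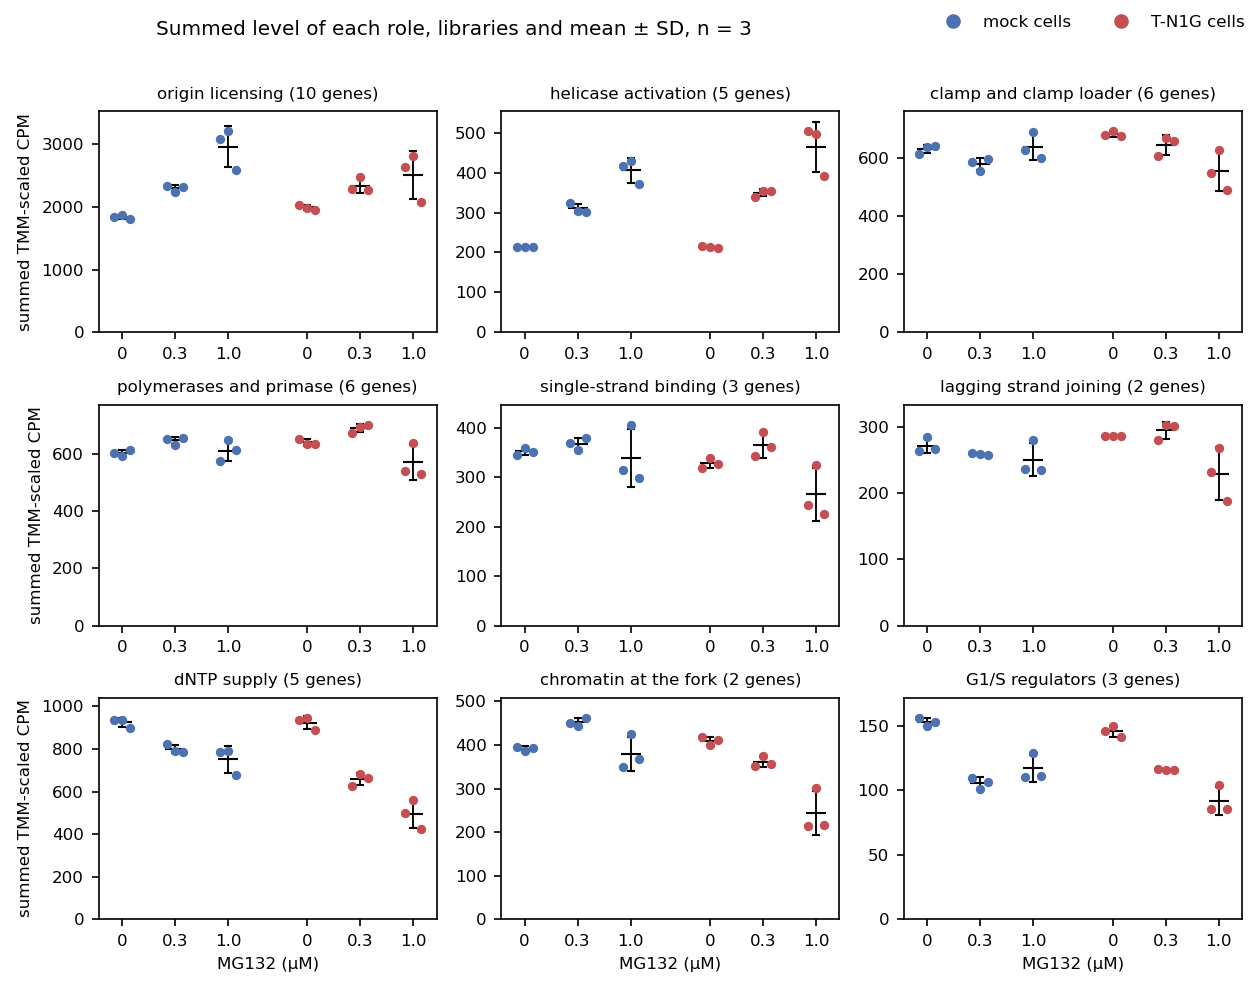
Summed level (TMM-scaled CPM, axes from 0) of the genes of each of the 9 roles in each library (points), with mean ± SD of 3 libraries in black, for mock (blue) and T-N1G cells (red) at 0, 0.3 and 1.0 µM MG132. In both lines all libraries at 1.0 µM lie above vehicle for licensing and helicase activation and below it for dNTP supply, and T-N1G licensing values at 1.0 µM lie on both sides of those at 0.3 µM.

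None of the 3 regulators of the G1/S step rose against vehicle. At 1.0 µM 2 fell in mock and 3 in T-N1G cells, where 37.4% and 38.9% of all genes fell. E2f1, which drives transcription of replication genes (chr2:154385135-154395628), was at 79.9, 75.4 and 81.7 CPM under vehicle, 42.5, 38.7 and 45.3 at 0.3 µM, and 47.7, 54.5 and 50.5 at 1.0 µM in mock cells. T-N1G cells showed 83.5, 83.1 and 81.1 CPM under vehicle, 81.9, 71.9 and 75.7 at 0.3 µM, and 59.1, 72.3 and 61.9 at 1.0 µM. In mock cells it fell most at the lower dose (-0.91 ± 0.08, adjusted p = 9.21e-08, and -0.63 ± 0.08 at 1.0 µM), with no overlap with vehicle. In T-N1G cells it was at -0.11 ± 0.08 at 0.3 µM and fell at 1.0 µM (-0.36 ± 0.08, adjusted p = 0.000716). The lines differed at 0.3 µM by 0.80 ± 0.12, adjusted p = 7e-05. At 0.3 and 1.0 µM, 7 and 10 of the 10 licensing genes rose in mock cells, where 25.0% and 32.4% of all genes rose. Any part of E2f1 in this was not tested.

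Cyclin E, encoded by Ccne1 and Ccne2, starts S phase with Cdk2. Ccne1 (chr7:38883002-38892509) was at 22.6, 22.2 and 21.6 CPM under vehicle, 20.8, 19.8 and 17.6 at 0.3 µM, and 15.1, 15.2 and 12.1 at 1.0 µM in mock cells. In T-N1G cells Ccne1 was at 20.2, 21.95 and 20.7 CPM under vehicle, 10.01, 14.2 and 14.6 at 0.3 µM, and 6.08, 8.34 and 4.39 at 1.0 µM. It fell at 1.0 µM by log2 values of -0.65 ± 0.16 and -1.74 ± 0.18, and at 0.3 µM in T-N1G cells (-0.69 ± 0.16), with all those libraries below vehicle. Ccne2 (chr4:11118497-11181406) in mock cells was at 53.4, 52.4 and 49.3 CPM under vehicle, 46.3, 42.2 and 43.5 at 0.3 µM, and 47.7, 59.1 and 48.4 at 1.0 µM. T-N1G libraries were found at 42.4, 44.3 and 39.3 CPM under vehicle, 24.8, 29.1 and 25.6 at 0.3 µM, and 20.2, 23.1 and 19.2 at 1.0 µM. It fell at both doses in T-N1G cells (-0.66 ± 0.10 and -1.01 ± 0.10), whereas at 1.0 µM mock libraries lay on both sides of vehicle (0.00 ± 0.09). Its fall in mock cells at 0.3 µM (-0.23, adjusted p = 0.0429) was lost without any 1 of the 6 libraries compared except 0.3 µM library 1 (adjusted p up to 0.18). The lines differed at 1.0 µM by -1.09 ± 0.24, adjusted p = 0.00119 for Ccne1, and by -1.01 ± 0.14, adjusted p = 9.04e-06 for Ccne2.

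Between the doses, 13 genes were higher and 6 lower at 1.0 than at 0.3 µM in mock cells, against 21.8% and 27.8% of all genes (49.6% in either direction). In T-N1G cells 9 were higher and 19 lower, against 29.3% and 30.8% (60.0% in either direction). These comparisons share the 0.3 µM and 1.0 µM libraries with those above. Mcm5 (0.59), Mcm10 (0.60) and Mcm4 (0.56) rose further in mock cells, and Tk1 (-0.82) and Pola2 (-0.69) fell further. In T-N1G cells Gins3 (0.69), Orc1 (0.60) and Mcm10 (0.56) rose further, and Tk1 (-1.48), Uhrf1 (-1.22), Pold1 (-1.18), Dut (-1.06) and Ccne1 (-1.05) fell further. Without mock 0.3 µM library 2 the 13 higher in mock cells became 8. The mock count of 6 became 3 on the authors' FPKM and 12 without the libraries numbered 2 at 1.0 µM.

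Without MG132, 2 of the 42 genes passed the test between the lines. Gins3 was higher in T-N1G cells (log2 difference 0.26 ± 0.08, adjusted p = 0.0285) and Ccne2 was lower (-0.30 ± 0.09, adjusted p = 0.0343), against 8.43% and 7.72% of all genes (16.1% in either direction). The call of Ccne2 was lost without any 1 of the 6 vehicle libraries and that of Gins3 without any except T-N1G library 2 (adjusted p up to 0.144 and 0.116), and with only the vehicle groups in the fit 12 genes were higher and 4 lower. At 0.3 µM 9 were higher in T-N1G cells and 7 lower (25.0% and 23.5% of all genes, 48.5% in either direction), E2f1 (0.86 ± 0.08), Gins3 (0.80 ± 0.08) and Gins1 (0.67 ± 0.10) being the furthest above mock and Ccne2 (-0.73 ± 0.10) and Ccne1 (-0.58 ± 0.17) the furthest below. At 1.0 µM 7 were higher and 21 lower (30.7% and 31.3% of all genes, 61.9% in either direction), with Gins3 at 1.45 ± 0.08, Uhrf1 at -1.34 ± 0.19, Ccne2 at -1.31 ± 0.10, Ccne1 at -1.17 ± 0.18 and Pold1 at -1.14 ± 0.17. With only the groups compared in the fit, these counts became 14 and 11 at 0.3 µM and 3 and 12 at 1.0 µM. The 7 lower at 0.3 µM became 3 without T-N1G library 1 of that dose, and the 7 higher at 1.0 µM became 4 without mock library 1 of that dose.

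The test of whether the response itself differed between the lines called 18 of the 42 genes at 1.0 µM. The change was lower in T-N1G cells for 15 and higher for 3, against 22.1% and 22.9% of all genes (45.0% in either direction). The 15 were Mcm2, Mcm5, Mcm7, Gins2, Pcna, Rfc1, Prim1, Pold1, Pole, Rrm1, Tyms, Dut, Uhrf1, Ccne1 and Ccne2, and the 3 were Orc1, Gins3 and Prim2. By sign alone, 30 of 42 had a lower change in T-N1G cells. The median difference was -0.271, against -0.017 over all genes. Leaving out the T-N1G library numbered 2 at 1.0 µM, which had the highest summed level of its group, gave 25 lower in place of 15, and leaving out both libraries numbered 2 at 1.0 µM gave 26. With the replicate block 20 were lower. The calls of Rfc1, Prim2 and Pole held in 16, 17 and 19 of 23 alternatives. At 0.3 µM 5 were higher (Gins1, Gins3, Rfc5, Prim2 and E2f1) and 2 lower (Tyms and Ccne2), against 14.2% and 11.0% of all genes (25.1% in either direction). Of the 12 single libraries that could be left out, 11 ended the call of Rfc5, 10 that of Prim2, 6 that of Tyms and 6 that of Ccne2 (adjusted p up to 0.104), and with only the 4 groups compared in the fit 12 were lower.

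**Figure D4:**
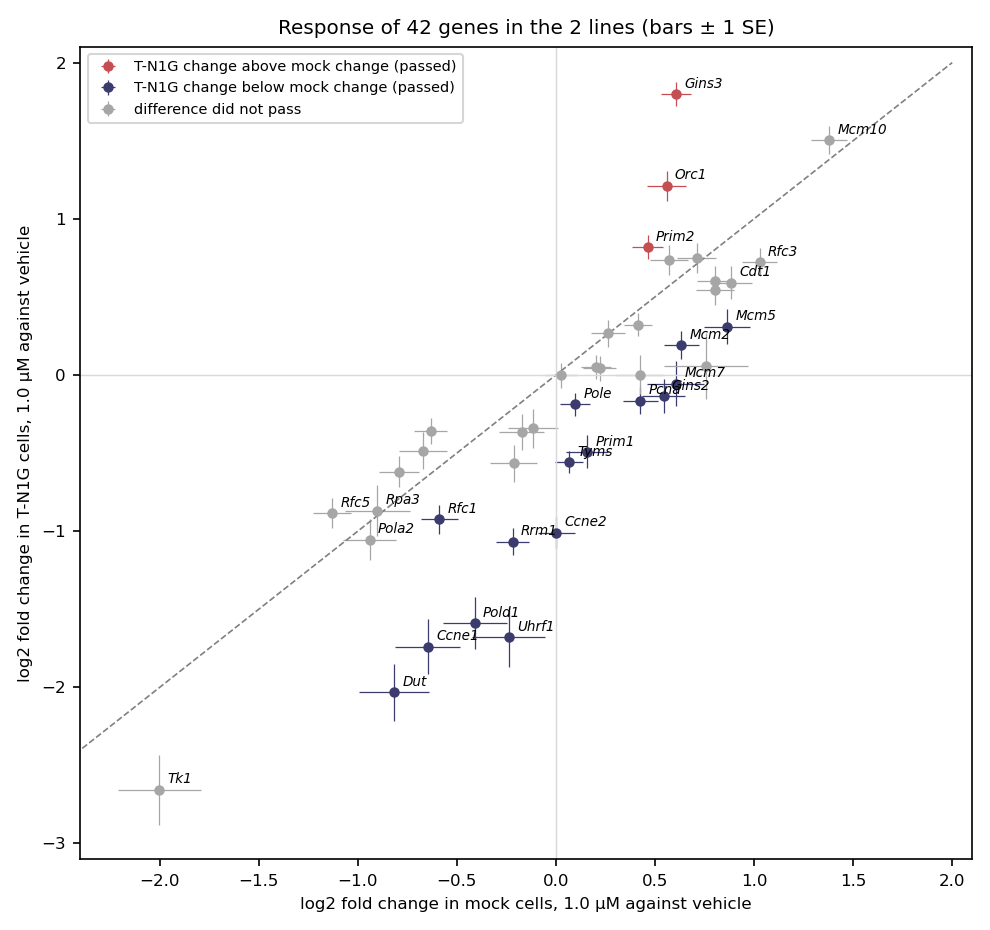
Log2 fold change of the 42 genes at 1.0 µM against vehicle in mock cells (x axis) and T-N1G cells (y axis), with bars of ± 1 SE and a dashed line of equal change. Red and dark blue points passed the test of the difference between lines, 3 above and 15 below the line, and grey points did not. Gins3 lies furthest above the line, and Uhrf1, Dut and Pold1 furthest below.

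A list of 40 other replication genes was set beside these. In mock cells at 1.0 µM 12 rose (30%) and 13 fell (32.5%), where 32.4% and 37.4% of all genes did. In T-N1G cells 8 rose (20%) and 20 fell (50%), where 37.5% and 38.9% of all genes did. Median log2 fold changes were -0.032 and -0.254. Orc4, another origin recognition subunit, rose by log2 values of 1.05 ± 0.07 and 1.49 ± 0.07. Dna2, a nuclease of Okazaki fragments, fell by log2 values of -0.70 ± 0.20 and -1.40 ± 0.21, the first lost without mock 1.0 µM library 1 (adjusted p = 0.0531). Chaf1b, the partner of Chaf1a, rose in mock cells (0.62) but fell with T-N1G (-0.66), a difference of -1.28 ± 0.21, adjusted p = 8.67e-05. Dctd, a deaminase that feeds dUMP synthesis, and Nasp, a histone chaperone, fell in T-N1G cells (-1.33 and -0.87) and were at -0.06 and -0.02 in mock cells.

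Of 31 genes that control the G1/S step, 5 rose and 20 fell in mock (16.1% and 64.5%) and 4 rose and 23 fell in T-N1G cells (12.9% and 74.2%) at 1.0 µM (medians -0.431 and -0.928). Over all genes these shares were 32.4% and 37.4% in mock cells and 37.5% and 38.9% in T-N1G cells. The D cyclins Ccnd1 (-1.58 and -2.83) and Ccnd2 (-1.13 and -2.24) fell in both lines, and both were already lower in T-N1G cells under vehicle (-1.71 and -1.54). Of 7 genes of CDK inhibitors, which oppose S phase entry, none rose against vehicle and 6 fell at 1.0 µM in each line, where 37.4% and 38.9% of all genes fell. Cdkn2c fell by log2 values of -1.55 ± 0.10 and -1.61 ± 0.10, and Cdkn1c (-1.51 and -1.32), Cdkn1b (-0.64 and -1.51), Cdkn2a (-0.51 and -0.78) and Cdkn2b (-0.55 and -0.63) fell too. Cdkn2d (-1.72 and -1.43) is counted among the 6 but lay near the floor, with 7 to 14 fragments in vehicle libraries and 1 to 7 in treated ones. It passed the filter only through vehicle libraries, so its fall is not independent of the filter. On log2 of the authors' FPKM plus 1 the falls of Cdkn2d were -0.298 and -0.316. Cdkn1a, a p53 target, fell at 0.3 µM (-0.77 and -0.60) and was at -0.01 and -0.04 at 1.0 µM. Its fall in T-N1G cells was lost without vehicle library 3 or 0.3 µM library 2 or 3 (adjusted p up to 0.103). E2f7 and E2f8, repressors of E2F targets, and Fbxo5, an inhibitor of the anaphase-promoting complex, fell in T-N1G cells (-1.04, -1.85 and -1.27). In mock cells E2f7 rose (0.39), and E2f8 and Fbxo5 were at 0.16 and 0.08.

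Of 27 mitotic genes 22 fell (81.5%) and 2 rose (7.41%) in mock cells at 1.0 µM, with a median of -0.583, and 21 fell (77.8%) and 1 rose (3.7%) in T-N1G cells, with a median of -0.949. Over all genes 37.4% fell and 32.4% rose in mock cells, and 38.9% fell and 37.5% rose in T-N1G cells. Both medians of the mitotic genes lie below those of the 42 genes, and this difference between lists was not tested.

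**Figure D5:**
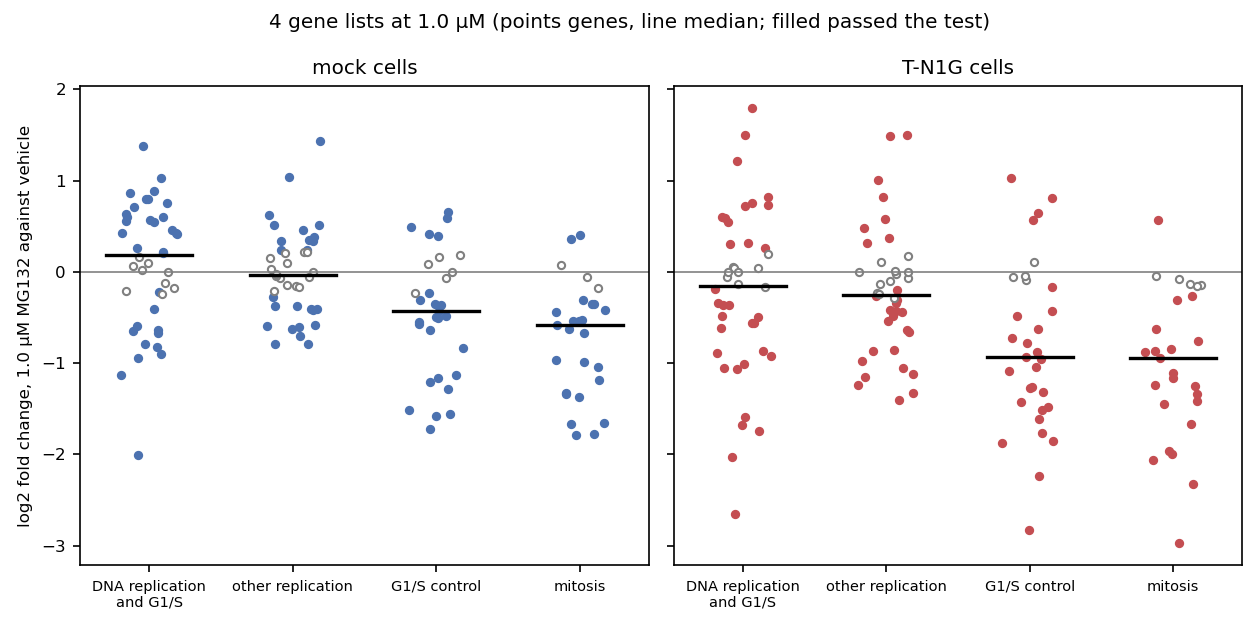
Log2 fold change at 1.0 µM against vehicle (y axis) of each gene of 4 lists (the 42 genes, 40 other replication genes, 31 of G1/S control and 27 of mitosis), in mock cells (left) and T-N1G cells (right). Filled points passed the test, open points did not, and black lines are medians: 0.181, -0.032, -0.431 and -0.583 in mock cells and -0.15, -0.254, -0.928 and -0.949 in T-N1G cells, in the order drawn.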

How the data were processed

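Polyadenylated RNA of 18 libraries in 6 groups was measured. The submitters' processing notes name mouse build mm9 and 3 tools: Cuffdiff 2.1.1, TopHat2 2.0.8b and bcl2fastq 2.16.0.10. Annotation and strand setting were not given in the sources used here, so reads of overlapping genes or pseudogenes may be shared. Per the file headers, the deposited table gives an estimated count of fragments and an FPKM value per gene and library, and the authors' FPKM is scaled by Cuffdiff. Estimated counts were 98.16% to 98.51% whole within 1e-06, and all were rounded. Cuffdiff's condition names and library order were read as line, dose and title number, which the files do not state. Genes without a value in every library were dropped. The authors' scaled group counts were not used.

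Tests used edgeR 4.0.16 (R 4.3.3): quasi-likelihood F, TMM, default filter, robust dispersion, all 18 libraries and 6 group means, Benjamini-Hochberg adjusted p under 0.05 over 13258 genes. Levels are TMM-scaled CPM, and an SE is the size of the log2 fold change over the square root of F. All groups share 1 estimate of spread per gene, although libraries at 1.0 µM spread further apart than those under vehicle. SEs and p-values may therefore be too small at 1.0 µM and too large under vehicle. Promoters are RefSeq's on GRCm38.p6, and no mm9 sequence was used. The test was checked on simulated data with the same spread in all genes and groups and few genes changed. That check cannot speak to the wider spread or the many changes at 1.0 µM. The labels do not say that library numbers pair samples. By deviations from group means, all 3 same-numbered pairs correlated above 0.1 in 2 of 15 pairs of groups. These were T-N1G and mock cells at 1.0 µM (0.415, 0.506 and 0.586) and T-N1G vehicle and 0.3 µM (0.345, 0.198 and 0.207). The reported tests left this pairing out, and results with the replicate block are given as an alternative. Alternatives were other scalings, filters, DESeq2 1.42.0, limma 3.58.1 on log2 of the deposited FPKM plus 1 or 0.1, a replicate block, only the groups compared, and left-out libraries, of which those numbered 2 at 1.0 µM were chosen after seeing the data. The members and lists were chosen with earlier results of these data known. Values in every library are given, per role, for the genes of highest and lowest mean change at 1.0 µM, and for 6 more with the largest called difference between lines. From each other list the 3 genes of largest change, the 3 of largest difference and the CDK inhibitors are named, except an item that is not reported here.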

Additional observations from a re-analysis of the deposited data

Results flagged for a closer look

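These genes drew attention because their response to MG132 passed the test of a difference between the lines. Values are the log2 change in T-N1G cells minus that in mock cells, from edgeR's quasi-likelihood test. At 0.3 µM they were Gins1 (0.50), Gins3 (0.54), Rfc5 (0.38), Prim2 (0.33), Tyms (-0.32), Ccne2 (-0.43) and E2f1 (0.80). At 1.0 µM they were Orc1 (0.65), Mcm2 (-0.44), Mcm5 (-0.55), Mcm7 (-0.66), Gins2 (-0.68), Gins3 (1.19), Pcna (-0.59), Rfc1 (-0.34), Prim1 (-0.65), Prim2 (0.36), Pold1 (-1.18), Pole (-0.29), Rrm1 (-0.85), Tyms (-0.63), Dut (-1.22), Uhrf1 (-1.44), Ccne1 (-1.09) and Ccne2 (-1.01). Gins3, Prim2, Tyms and Ccne2 passed at both doses, each in the same direction. Both tests use the same vehicle libraries, so the doses are not independent. At 0.3 µM the calls of Rfc5, Prim2, Tyms and Ccne2 were lost without some single libraries, as given above.

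Among genes of the other lists, those named at 0.3 µM were Dctd (-0.52), Chaf1b (-0.75), E2f7 (-0.92), E2f8 (-0.96), Fbxo5 (-1.17), Bub1b (1.02) and Kif23 (-0.80). At 1.0 µM they were Dctd (-1.27), Chaf1b (-1.28), Nasp (-0.84), E2f7 (-1.43), E2f8 (-2.01), Fbxo5 (-1.36), Bub1b (1.75), Kif23 (-1.03) and Ube2c (-1.19). Bub1b, a kinase of the spindle checkpoint, and E2f8 had the highest and the lowest of these values at 1.0 µM. The call of Dctd at 0.3 µM was lost without 6 of the 12 single libraries (adjusted p up to 0.0653).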

How the results depend on the processing

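Counts of the 42 genes called higher or lower stayed within 1.5 times the reported count in 339 of 398 recomputations and moved further in 59. Of 9334 recomputed values of named genes, 319 no longer passed the threshold, 291 passed it newly, and no called value changed sign. Genes lower at 1.0 than at 0.3 µM in mock cells (6) became 3 on the authors' FPKM with a pseudocount of 1 or 0.1, and 12 without the libraries numbered 2 at 1.0 µM. In T-N1G against mock cells under vehicle, 1 gene higher became 3 with DESeq2 size factors, library size only, DESeq2's Wald test, a minimum of 5 CPM or the replicate block, 12 with only the groups compared, and 7 or 4 without the libraries numbered 3 or 2 at 1.0 µM. The 1 lower became 4, 2 and 2 in the last 3 settings. At 0.3 µM, 9 higher became 14 with only the groups compared and 14 without the libraries numbered 3 at 1.0 µM, and 7 lower became 11 with only the groups compared. At 1.0 µM, 7 higher became 4 with no filter and 3 with only the groups compared, and 21 lower became 12. For the difference in response at 0.3 µM, 5 higher became 3 with library size only or no filter (3 higher and 2 lower with library size), and 2 lower became 4 with DESeq2's Wald test, 12 with only the groups compared and 7 without the libraries numbered 3 or 2 at 1.0 µM. At 1.0 µM, 15 lower became 26 without the libraries numbered 2.

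Leaving out 1 library at a time gave 8 to 14 genes higher at 1.0 than at 0.3 µM in mock cells, 0 to 1 higher and 0 to 0 lower under vehicle between lines, 3 to 6 lower between lines at 0.3 µM, 4 to 7 higher between lines at 1.0 µM, and, for the difference in response, 3 to 4 higher and 0 to 2 lower at 0.3 µM and 14 to 25 lower at 1.0 µM. For the T-N1G against mock comparison at 0.3 µM the median of the 42 genes changed from 0.012 to -0.007 with library size only. With the replicate block, T-N1G against mock cells at 1.0 µM had 7 higher and 23 lower in place of 21, with Lig1 newly passing (-0.266, adjusted p = 0.0319), and T-N1G cells at 0.3 µM had 14 higher and 11 lower, with no call of a named gene lost in either. In the other comparisons the same-numbered libraries did not all correlate above 0.1. Over all pairs of groups, the median correlation was 0.084 for the same number and -0.0445 for other numbers. The block gave 20 genes with a lower response in T-N1G cells at 1.0 µM in place of 15. The cause of these changes was not tested. Libraries were deep enough for all 42 genes to pass the filter.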

Other observations

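Except for Bub1b, the mitotic genes named by the same rule fell in both lines at 1.0 µM MG132. Ube2c, which tags mitotic proteins for destruction, was at 175, 167 and 182 CPM under vehicle, 97.6, 97.6 and 91.1 at 0.3 µM, and 49.04, 53.4 and 49.8 at 1.0 µM in mock cells. In T-N1G cells Ube2c was at 154, 169.5 and 158 CPM under vehicle, 62.7, 65.9 and 67.5 at 0.3 µM, and 17.6, 26.7 and 17.1 at 1.0 µM. Its log2 fold changes at 1.0 µM were -1.79 ± 0.11 and -2.97 ± 0.12. The mitotic kinases Aurkb (-1.77 and -2.33) and Plk1 (-1.66 and -2.06) fell alongside it. Kif23, a motor of cytokinesis, fell by log2 values of -0.63 and -1.66. Bub1b went apart from these: it fell in mock cells (-1.18) and rose in T-N1G cells (0.57), with adjusted p = 6.79e-08 and 0.00019.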
